A study of Saccharomyces cerevisiae with 59 samples.

Results

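The step from 40 to 50 min after release from α-factor, which the study labelled as the passage from S/G2 to G2/M, was examined for RNA and chromatin over all 5590 genes in the 4 deposited tables. The columns for 40 and 50 min rest on 8 of the 59 libraries of the series, 4 for RNA and 4 for chromatin. Each column merges 2 biological replicates whose times were aligned by the authors. In replicate 1 the aligned times of 40 and 50 min were sampled at 50 and 60 min, and in replicate 2 the sampled and aligned times were the same. The cells were budding yeast of the W303 background, MATa. Their auxotrophy and drug markers were ade2-1, his3-11,15, can1-100 and the combined leu2 mutations 3 and 112, and the strain also carried URA3::BrdU-Inc and BAR1::TRP, the last at the gene of the protease that degrades α-factor. All time points, the α-factor sample included, came from this strain grown in YPD at 30 °C and held for 2 h in 50 ng/mL α-factor, the pheromone that arrests MATa cells in G1. RNA was measured by sequencing of total RNA, and chromatin by sequencing of DNA fragments protected from micrococcal nuclease (MNase). Because the replicates were merged, every time point is a single value with no replicate error, and no test or p-value could be computed. A gene was called only by the size of its change.

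In budding yeast the mitotic cyclins Clb1 and Clb2 and the polo kinase are made from a group of genes known as the CLB2 cluster, which the factors Mcm1, Fkh2 and Ndd1 switch on before mitosis. Among the products of the cluster is Swi5, a transcription factor that stays out of the nucleus while mitotic cyclin-dependent kinase is active and enters it at mitotic exit, where it turns on genes for the end of mitosis and the next G1 phase. Mcm1 also acts at the early cell cycle box (ECB), an element of genes needed for licensing of replication origins and for START. Histone genes are transcribed in S phase and shut off after it.

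RNA values were on the scale the authors named TPM, and steps are differences of log2(value + 1). A gene entered the RNA comparison when it reached a value of 5 at 40 or 50 min, which 5190 genes did and 400 did not. Of these, 20 genes (0.385%) rose at least 2-fold and 13 genes (0.25%) fell at least 2-fold. The median step of all genes was -0.03. For comparison, 19 genes rose and 25 fell at the step from 30 to 40 min, and 75 rose and 3 fell from 50 to 60 min. Those steps share the column of 40 or of 50 min with the step described here. In bulk samples of a synchronized culture, more cells that have reached a stage and more RNA in each of them cannot be told apart.

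**Figure D1:**
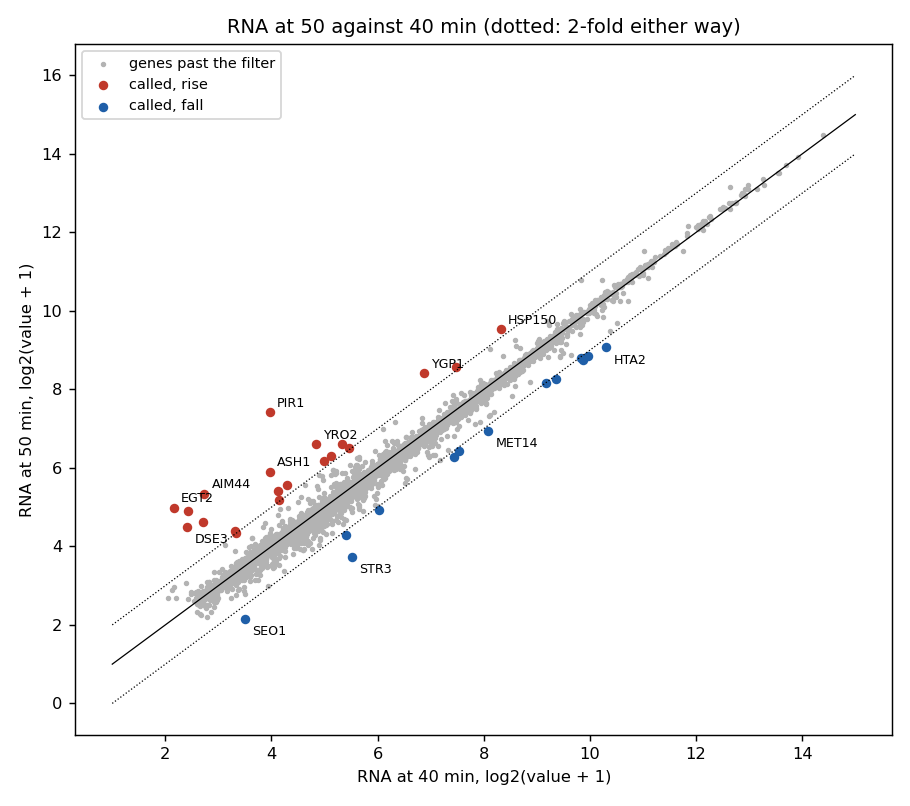
RNA at 50 min against RNA at 40 min, both as log2(value + 1), for the 5190 genes past the filter, 1 merged value per gene and time. The solid line marks equal values and the dotted lines 2-fold higher and lower. The 20 red points are the genes that rose and the 13 blue points those that fell, with PIR1 and STR3 among those farthest from the line.

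The phase labels were compared with genes of known timing. Each gene was scaled over the 15 time points to a mean of 0 and an SD of 1 (z). The median z of the 8 G2/M genes was 0.46 at 30 min, rose to 1.12 and 1.21 at 40 and 50 min and returned to 0.44 at 60 min. Their level was thus already near its highest at 40 min and reached its first-cycle peak at 50 min. That of the 6 M/G1 genes was -1.38 at 40 min, 0.07 by 50 min and 1.46 by 60 min. The 8 S-phase genes went from -0.06 to -0.94, and the 6 G1/S genes from -0.79 to -1.34. Between 40 and 50 min the G2/M genes were therefore almost level, while most M/G1 genes were gaining and genes of S phase were losing RNA. The S-phase genes were the core histones, and the M/G1 genes were SIC1, EGT2, ASH1, PCL9, CDC6 and CTS1. All of these M/G1 genes but CTS1 are among the genes called as rising. The comparison thus repeats values described below and is not separate support for them. The mating type matched the label. The a-specific STE2, the receptor for α-factor, was at 299 and 340.3, and the α-specific STE3, the receptor for a-factor, was at 1.22 and 1.11.

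None of the 24 genes listed for the CLB2 cluster rose or fell 2-fold. Their median step was 0.04, and 15 were higher and 9 lower at 50 min, where 38.4% of all tested genes were higher. CLB2, the main mitotic cyclin, was at 157 and 172, and its relative CLB1 at 175 and 149. CDC5, the polo kinase, was at 114 and 117. SWI5, which encodes an activator of M/G1 genes, was at 63.4 and 61.3. The members with the highest steps were DBF2, a kinase of the mitotic exit network (38.9 and 57.4, step 0.55), CHS2, the chitin synthase of the primary septum (75.9 and 102, step 0.43), and CDC20, the activator of the anaphase-promoting complex (44.7 and 59.9, step 0.41). The level values of the cluster lay between opposite moves on either side. All 24 were higher at 40 than at 30 min (median step 0.77, against 32.7% of tested genes higher). All 24 were lower at 60 than at 50 min (median -0.67, against 56.5% lower). KIN3, which is not on this list, also rose before 40 min and fell after 50 min, but passed the threshold between them. It was at 10.3, 42.8, 89.9 and 67.5 at 30, 40, 50 and 60 min.

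The factors upstream of the cluster and other regulators of the S/G2 interval were mostly lower at 50 min. Of 10 transcription factors of this interval, 9 were lower and none fell 2-fold, with a median step of -0.50. For the counts in this paragraph, 3197 of all 5190 tested genes were lower (median -0.03). YHP1 and YOX1, homeobox repressors that act at early cell cycle boxes, went from 61.6 to 35.7 and from 31.4 to 18.9. FKH1, a forkhead factor, went from 84.9 to 61.7, and MCM1 was level at 92.9 and 94.2. In the cyclin and kinase group, SWE1, the Wee1 kinase that holds back mitosis, was at 24.9 and 16.7, and CLB4, a cyclin of the S/G2 interval, at 34.1 and 24.2. PDS1, the securin whose destruction starts anaphase, was at 26.0 and 14.2 (step -0.83), the lowest step of 25 genes of the anaphase-promoting complex and the spindle checkpoint. Of 25 genes of spindle motors, tubulins and microtubule proteins, 21 were lower (median -0.29). The kinesin-5 gene CIN8 was at 29.3 and 17.6. Of 24 listed kinetochore genes 23 were lower (median -0.24). No gene of these last 3 groups was called.

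The genes that rose were led by genes of mitotic exit and daughter cells. PIR1, which encodes a cell wall protein, went from 14.7 to 170.2 (step 3.45), and stood at 829 by 60 min. EGT2, a cell wall endoglucanase gene used in cell separation, went from 3.47 to 30.6 (2.82). AIM44, which encodes a protein of the bud neck, went from 5.66 to 39.6 (2.61). These were the 3 highest steps of all tested genes. PCL9, a cyclin of the Pho85 kinase, went from 4.40 to 29.1 (2.48), and DSE3, named for its daughter-specific expression, from 4.33 to 21.6 (2.09). ASH1, whose product keeps HO off in daughter cells, went from 14.7 to 59.0 (1.94). PIR1 had been at 42.3 in α-factor and at 13.3 at 30 min, and EGT2 at 10.3 and 3.29, so both started this step near their lowest values.

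Of 21 M/G1 genes of mitotic exit, cell separation and the cell wall, 8 rose: PIR1, EGT2, PCL9, DSE3, ASH1, DSE4, SIC1 and HSP150. DSE4, a daughter-specific glucanase gene, went from 5.51 to 23.4, and SIC1, the inhibitor of B-type cyclin kinase, from 18.7 to 46.3 (1.27). HSP150, a cell wall gene related to PIR1, went from 319 to 741 (1.21). The list was not uniform, with a median step of 0.22 and 8 members below 0. CTS1, the chitinase that dissolves the septum, was at 88.6 and 84.4, DSE1 at 39.1 and 35.9, DSE2 at 44.3 and 39.2, and SCW11 at 43.6 and 42.4. At 60 min these 4 genes stood at 150.3, 103, 117 and 105. PIR3, a relative of PIR1 whose start site lies 1503 bp from that of PIR1 on the opposite strand, was at 13.8 and 12.3, so the neighbours differed in their steps. 

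**Figure D2:**
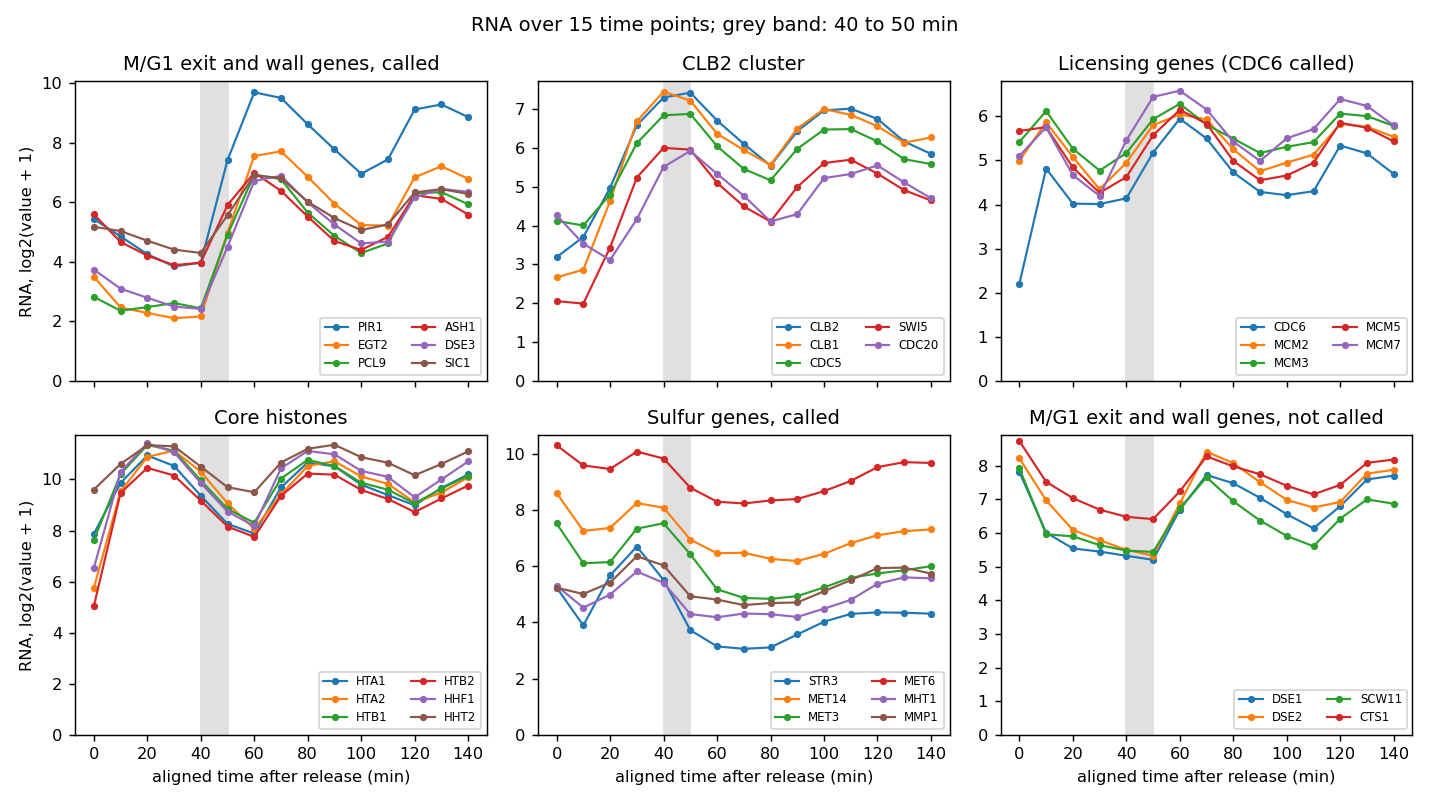
RNA as log2(value + 1) over the 15 aligned time points for 6 groups of genes, 1 merged value per point, with the interval from 40 to 50 min in grey. The called genes of the M/G1 list are near their lowest values at 40 min and higher at 50 min, whereas CTS1, DSE1, DSE2 and SCW11 are still at their lowest at 50 min. The CLB2 cluster is near its peak on both edges of the band.

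The letters ACCAGC, a core bound by Swi5, were searched on both strands of the 300 bases before the deposited start site of every gene. They were present before 390 of 5590 genes (6.98%), before 12 of the 21 genes of this M/G1 list (57.1%) and before 5 of the 20 genes that rose (25%). Within the list the letters did not separate the genes by timing. They were found before 4 of the 8 genes that rose (50%) and before 8 of the 13 that did not (61.5%). The windows of the 4 that rose and hold the letters are shown because they include 3 of the 4 highest steps. They are PIR1 (chrXI:142898-143197, - strand), EGT2 (chrXIV:23717-24016, + strand), PCL9 (chrIV:137896-138195, + strand) and DSE3 (chrXV:818343-818642, + strand). None overlaps another listed gene. Sequences are from the RefSeq R64 genome and are written 5′ to 3′ on the strand of the gene, ending at the base before the start site, with ACCAGC or its reverse complement GCTGGT in capitals.
PIR1: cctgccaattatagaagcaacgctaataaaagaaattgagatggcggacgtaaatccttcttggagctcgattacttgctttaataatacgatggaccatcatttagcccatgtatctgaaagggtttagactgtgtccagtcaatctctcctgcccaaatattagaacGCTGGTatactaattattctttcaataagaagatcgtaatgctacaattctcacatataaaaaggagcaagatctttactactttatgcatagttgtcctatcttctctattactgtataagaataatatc
EGT2: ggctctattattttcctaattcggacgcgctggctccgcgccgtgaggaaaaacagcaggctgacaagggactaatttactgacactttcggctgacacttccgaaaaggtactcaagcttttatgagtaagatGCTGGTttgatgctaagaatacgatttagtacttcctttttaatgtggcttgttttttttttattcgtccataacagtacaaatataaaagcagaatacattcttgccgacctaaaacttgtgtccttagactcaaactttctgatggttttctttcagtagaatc
PCL9: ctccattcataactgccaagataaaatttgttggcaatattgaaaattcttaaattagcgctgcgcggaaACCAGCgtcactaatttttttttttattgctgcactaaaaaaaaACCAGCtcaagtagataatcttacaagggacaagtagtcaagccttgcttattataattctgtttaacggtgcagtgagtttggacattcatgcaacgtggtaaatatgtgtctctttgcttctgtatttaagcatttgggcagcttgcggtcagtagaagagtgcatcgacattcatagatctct
DSE3: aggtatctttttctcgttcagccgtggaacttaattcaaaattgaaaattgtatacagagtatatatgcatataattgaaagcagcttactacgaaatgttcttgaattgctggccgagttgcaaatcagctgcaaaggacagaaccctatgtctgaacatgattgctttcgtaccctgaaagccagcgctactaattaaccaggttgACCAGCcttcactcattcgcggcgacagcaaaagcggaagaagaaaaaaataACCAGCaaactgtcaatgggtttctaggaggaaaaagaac
PIR1 has 1 match that begins 131 bases before the start site and EGT2 has 1 at 166 bases. PCL9 has matches at 230 and 186 bases, and DSE3 at 92 and 40 bases. Of all promoters, 0.304% held at least 2 matches.

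The genes of the early cell cycle box moved together. All 10 were higher at 50 min, where 38.4% of tested genes were higher, with a median step of 0.74, and 1 passed the threshold. CDC6, which loads the replicative helicase onto origins, went from 16.6 to 35.2 (step 1.04, and 0.76 with a pseudocount of 10). The helicase genes MCM2 to MCM7 had steps from 0.58 to 0.99. MCM7 went from 42.9 to 86.1 (0.99) and was the gene nearest below the threshold, followed by MRH1 (915 to 1775, 0.95), while CDC6 and YLR049C (1.01) were the nearest above it. MCM5 was at 23.7 and 46.6. CLN3, the G1 cyclin that starts the next cycle, was at 69.4 and 84.0, and SWI4, the DNA-binding subunit of the G1/S factor SBF, at 11.3 and 17.5. The targets of SBF and MBF themselves were lower in 26 of 29 cases (median -0.36). RNR1, the large subunit of ribonucleotide reductase, was at 90.1 and 47.9, and PCL1, a G1 cyclin of Pho85, at 63.0 and 31.8. All 29 of these genes were higher at 60 than at 50 min.

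A simplified Mcm1 core, CCNNNNNNGG, which reads the same on both strands, was present in the 300-base window of 33.8% of all genes. It was present before 6 of the 7 licensing genes, CDC6 and MCM2 to MCM7 (85.7%), before 20 of 24 CLB2 cluster genes (83.3%) and before 13 of the 20 genes that rose (65%). The same letters were therefore found both in the genes that were level and in those that were higher at 50 min. The windows of CDC6 and MCM7 are given because they had the highest steps of the licensing genes and 2 matches each, with the core in capitals. They are CDC6 (chrX:68977-69276, + strand) and MCM7 (chrII:625442-625741, + strand), and neither overlaps another listed gene.
CDC6: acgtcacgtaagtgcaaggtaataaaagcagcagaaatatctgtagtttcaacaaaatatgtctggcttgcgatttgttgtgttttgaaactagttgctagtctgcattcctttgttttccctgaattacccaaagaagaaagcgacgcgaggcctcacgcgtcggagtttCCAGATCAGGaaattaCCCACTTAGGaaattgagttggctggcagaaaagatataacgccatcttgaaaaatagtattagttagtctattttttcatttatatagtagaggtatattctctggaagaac
MCM7: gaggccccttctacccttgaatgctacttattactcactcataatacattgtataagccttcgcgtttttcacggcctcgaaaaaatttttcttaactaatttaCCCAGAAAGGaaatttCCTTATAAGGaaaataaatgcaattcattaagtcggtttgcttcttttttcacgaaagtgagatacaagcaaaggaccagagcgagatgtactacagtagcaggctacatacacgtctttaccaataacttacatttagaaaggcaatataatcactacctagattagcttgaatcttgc
The matches begin 129 and 113 bases before the start site of CDC6, and 196 and 180 bases before that of MCM7. At least 2 matches were present in 8.16% of all windows.

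The other genes that rose had varied roles. YGP1, a secreted glycoprotein of the cell wall, went from 116 to 340.5 (step 1.55), and YRO2, which encodes a plasma membrane protein, from 27.5 to 95.8 (1.76). TIP1, a cell wall mannoprotein gene, went from 39.1 to 96.5, and the glucose transporter gene HXT2 from 176 to 380.1. The fixed lists of cell wall and plasma membrane genes and of heat shock and stress genes had no member called. In them 15 of 21 and 17 of 20 were lower, where 3197 of all 5190 tested genes were lower. NCA3, KIN3 (a kinase gene of the NIMA family), PRY1, MSA1 (a regulator of G1 transcription), YER053C-A and YLR049C complete the 20 genes that rose. YGP1, NCA3, PRY1 and KIN3 differed from the mitotic exit genes in their later course, with lower values at 60 than at 50 min (279, 34.1, 54.1 and 67.5 at 60 min). In all, 15 of the 20 were higher at 60 than at 50 min, and 10 of these by at least 2-fold. Ribosomal protein genes had small steps. Of 135 genes 131 were higher at 50 min, where 38.4% of tested genes were higher, with a median step of 0.11 and none called. Many of them are near-identical pairs whose reads may be divided uncertainly.

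Of the 13 genes that fell, 5 were core histones, of which HTB2, the nearest to the threshold, was lost under 3 of 7 alternative settings. HTA2 went from 1265 to 537 (step -1.24), HTB1 from 1000.1 to 459 (-1.12), HHF1 from 930.4 to 427 (-1.12), HTA1 from 659 to 306 (-1.11) and HTB2 from 576 to 284 (-1.02). The other 3 core histones were also lower, with HHF2 at 1327 and 722, HHT2 at 1451 and 830, and HHT1 at 795 and 468. All 8 were thus lower, with a median step of -1.06, where 3197 of 5190 tested genes were lower. The decline had begun before, since the median step of the same 8 genes from 30 to 40 min was -0.99, and it continued from 50 to 60 min at -0.40. The 8 genes form 4 divergent pairs whose start sites lie 580 to 712 bp apart, and the gene copies of each histone are near-identical, so the values of copies are uncertain.

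Genes of sulfate assimilation and methionine synthesis made up 6 of the other 8 genes that fell. STR3, a cystathionine β-lyase gene, had the largest fall of all tested genes, from 44.7 to 12.2 (step -1.79). MET14, the adenylylsulfate kinase gene, went from 271 to 123 (-1.14), and MET3, the ATP sulfurylase gene, from 184 to 85.1 (-1.10). MET6, the methionine synthase gene, went from 916 to 445 (-1.04). MMP1, a permease gene for S-methylmethionine, went from 64.5 to 29.6, and MHT1, whose product uses S-methylmethionine, from 41.6 to 18.7. MHT1 and MMP1 are divergent neighbours with start sites 257 bp apart. Of the 20 tested genes of the sulfate and methionine list, which does not hold MHT1, 5 fell and all 20 were lower (median -0.78). Among all 5190 tested genes 3197 were lower. SEO1, a permease-like gene, and TOS6, a cell wall protein gene, completed the 13, with values of 10.3 and 3.43, and of 173 and 77.0. The falls nearest the threshold were MET6 and HTB2 inside it and MNN1 (-0.97) and PCL1 (-0.96) outside.

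**Figure D3:**
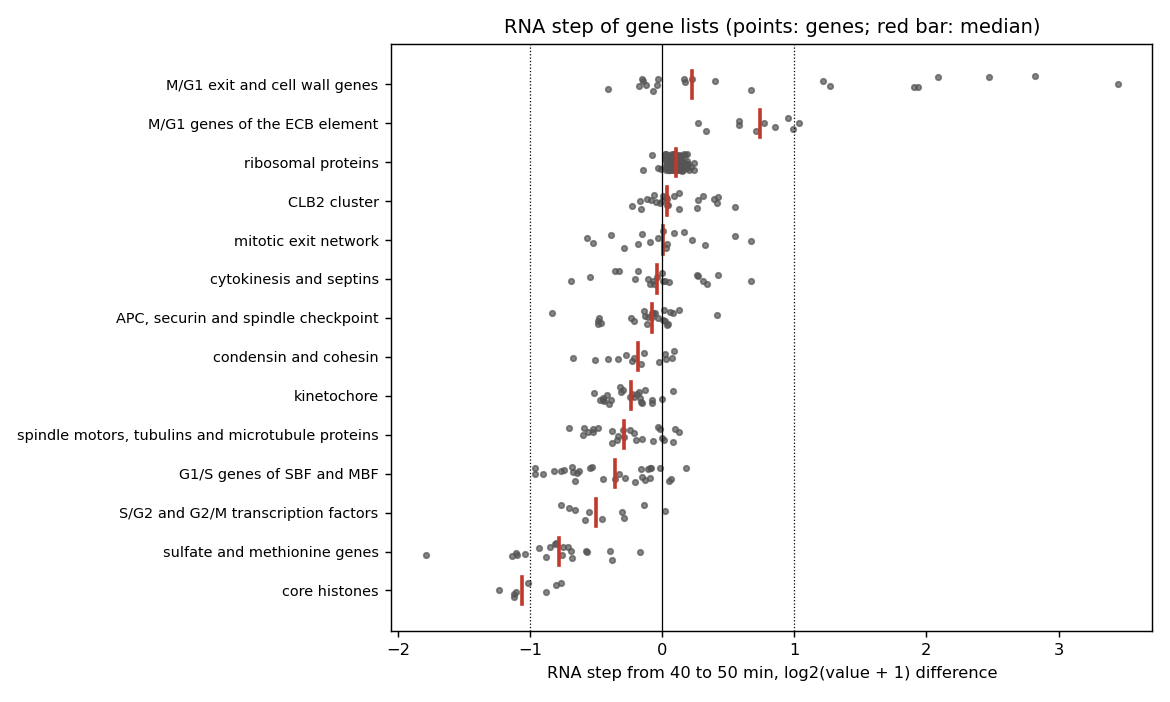
RNA step from 40 to 50 min, as a difference of log2(value + 1), for the genes of 14 lists. Each point is a gene past the filter, red bars are medians and dotted lines mark 2-fold. The core histones (median -1.06) and the sulfate and methionine genes (-0.78) lie lowest, the CLB2 cluster is centred near 0 and the M/G1 list of exit and cell wall genes spreads from -0.41 to 3.45.

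Letters bound by known regulators of sulfur genes were counted in the same windows. CACGTG, the core bound by Cbf1, was present in the windows of 12 of the 21 listed genes (57.1%) and of 4.29% of all genes. CTGTGG, the core bound by Met31 and Met32 (reverse complement CCACAG), was present in 11 of the 21 (52.4%) and in 8.01% of all genes. Among the 6 sulfur genes that fell, 2 held CACGTG and 4 held CTGTGG. Those 2 are shown, MET14 (chrXI:439430-439729, - strand) and MET3 (chrX:455736-456035, + strand), with CACGTG in capitals. Neither window overlaps another listed gene.
MET14: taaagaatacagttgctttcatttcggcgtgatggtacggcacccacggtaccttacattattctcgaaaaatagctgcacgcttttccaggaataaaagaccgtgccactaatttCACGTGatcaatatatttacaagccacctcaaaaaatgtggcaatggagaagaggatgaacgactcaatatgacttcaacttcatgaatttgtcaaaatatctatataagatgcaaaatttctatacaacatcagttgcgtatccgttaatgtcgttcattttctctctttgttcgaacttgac
MET3: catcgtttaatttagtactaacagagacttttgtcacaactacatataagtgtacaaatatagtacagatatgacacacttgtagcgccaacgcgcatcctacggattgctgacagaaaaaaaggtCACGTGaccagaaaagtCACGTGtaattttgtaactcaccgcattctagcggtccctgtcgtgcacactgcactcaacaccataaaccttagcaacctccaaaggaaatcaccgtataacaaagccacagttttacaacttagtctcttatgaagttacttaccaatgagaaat
The match begins 184 bases before the start site of MET14, and the matches of MET3 begin at 174 and 157 bases.

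Gene-body entropy, a Shannon entropy of the nucleosome score at a gene, is low where nucleosomes are well positioned and high where they are disordered. Its level did not grow with gene length. The median at 40 min was 5.86 for genes of 500 to 1000 bp and 5.79 for genes of at least 3000 bp, and no value exceeded 6.21. The values may therefore not cover the full length of a gene. Entropy was lower at 50 than at 40 min in 4606 of 5590 genes (82.4%). The median went from 5.82 to 5.78 and the median step was -0.035. In 362 genes (6.48%) the fall was at least 0.1, and in 7 genes (0.125%) entropy rose by at least 0.1. The lower entropy was part of a longer course, with 82.2% of genes lower from 30 to 40 min and 61.1% lower from 50 to 60 min. It was seen on all 16 chromosomes, where the share of genes with lower entropy ran from 77.6% to 87.6%. Genes in the top 10% by mean RNA had a smaller median step, -0.023, and 71.9% of them were lower. Near centromeres, within 20 kb, the median step was -0.027 (317 genes).

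The step in entropy differed little with the distance from an annotated replication origin. The median was -0.030 for the 1386 genes within 5 kb and -0.043 for the 480 genes at 20 to 25 kb, with Spearman's rho of -0.085 over 5036 genes up to 30 kb. Neighbouring genes share nucleosomes and replication forks, so the genes are not independent. From 30 to 40 min the median was -0.033 within 5 kb, lowest at -0.041 for 15 to 20 kb and -0.030 beyond 30 kb, where the step from 40 to 50 min had -0.041.

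**Figure D4:**
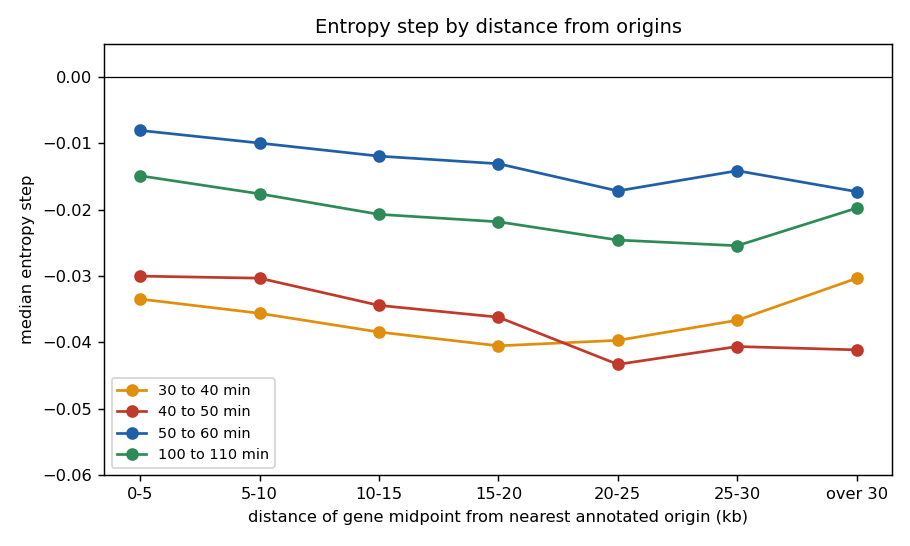
Median step in gene-body entropy against the distance of the gene midpoint from the nearest annotated origin, in bins of 5 kb, for 4 steps. Each point is a median over genes. The step from 40 to 50 min runs from -0.030 within 5 kb to -0.043 at 20 to 25 kb and stays near -0.041 beyond.

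Single genes departed from the general fall in entropy. The largest falls in entropy were in TRM2, a tRNA methyltransferase gene (5.67 to 5.42), DRS1, a helicase gene of ribosome assembly (5.55 to 5.30), and NOG2, a GTPase gene of ribosome assembly (5.72 to 5.51). Their RNA steps were between -0.08 and -0.02. The largest rises were in NCA3 (5.80 to 5.95), RCK2, a protein kinase gene (5.51 to 5.66), and MFA2, which encodes a-factor (4.99 to 5.13). NCA3 was among the genes that rose in RNA, and MFA2 had an RNA step of 0.57. At PIR1 entropy went from 5.72 to 5.79 and then to 5.97 at 60 min.

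The gene-body nucleosome score, which follows how closely the fragments match a well-placed nucleosome, was lower in 2828 genes (50.6%). A log2 ratio of 0.2 or more was reached by 63 genes (1.13%), and -0.2 or less by 149 genes (2.67%). Genes of low mean score supplied many of these calls, and without the lowest 10% of genes the total of 212 became 126. Outside that 10%, YBR196C-A (-0.37), MRH1 (-0.35) and CIT2 (-0.35) had the largest falls. MRH1, a membrane protein gene related to YRO2, was just under the RNA threshold, and CIT2 encodes the peroxisomal citrate synthase. The largest rises were in 3 short genes, YMR158C-A, YLR285C-A and YPR159C-A (0.39, 0.37 and 0.34), which are 102 to 171 bp long. They were followed by PKR1 and by MUP1, a methionine permease gene (0.28) whose RNA was lower at 50 min (242 and 143).

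The promoter subnucleosome score, made from fragments shorter than a nucleosome, is given relative to the median log2 ratio of all genes, which was 0.034. It rose by 0.5 or more in 8 genes (0.143%) and fell by as much in 20 (0.358%). Without the lowest 10% of genes by mean score, 5 of the rises and 6 of the falls were left. With a pseudocount of the 10th percentile, which shrinks every ratio, none of the 28 was left. Outside the lowest 10%, the largest rises were at YGP1 (0.0111 to 0.0191, log2 ratio 0.75), YPR157W (0.59) and PRY1 (0.0186 to 0.0279, 0.55), with ASH1 next (0.0223 to 0.0329, 0.52). YGP1, PRY1 and ASH1 were also among the 20 genes that rose in RNA. The largest falls were at SRL1, a cell wall mannoprotein gene (-0.71), AXL2, a gene of axial bud site selection (-0.68), and ATP25 (-0.61).

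The chromatin of the called genes was then read over the same step. Of the 20 genes that rose, 16 (80%) had a promoter score above the median of all genes, which by construction 50% of genes exceed, and their median log2 ratio was 0.22. The nucleosome score was lower in 16 of the 20 (median -0.077), and entropy was higher in 13 (median 0.0096), where 82.4% of all genes had lower entropy. Of the 13 genes that fell, 11 had a promoter score below the median of all genes (median -0.19), and 11 had lower entropy (84.6%, a share near that of all genes, with a median of -0.076). Their nucleosome score was mixed, lower in 6 and higher in 7. All 8 core histones had a lower promoter score (median -0.17), with the limit that each divergent pair shares a region. Their entropy was lower in 4 and higher in 4, and their nucleosome score lower in 5 and higher in 3. In the sulfate and methionine list 18 of 21 had a lower promoter score (median -0.12), 15 had a higher nucleosome score (median 0.10) and 19 had lower entropy (median -0.092). Over genes with an RNA step of 0.5 or more (65 genes), 43.1% had lower entropy, 72.3% a lower nucleosome score and 76.9% a higher promoter score. Over genes with a step of -0.5 or less (103 genes) these shares were 87.4%, 27.2% and 26.2%. Across all 5190 tested genes the relations were weak, with Pearson's r of 0.14 between the steps in RNA and entropy, -0.14 for the nucleosome score and 0.18 for the promoter score. Genes are not independent replicates, and the chromatin readouts come from the same fragments.

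**Figure D5:**
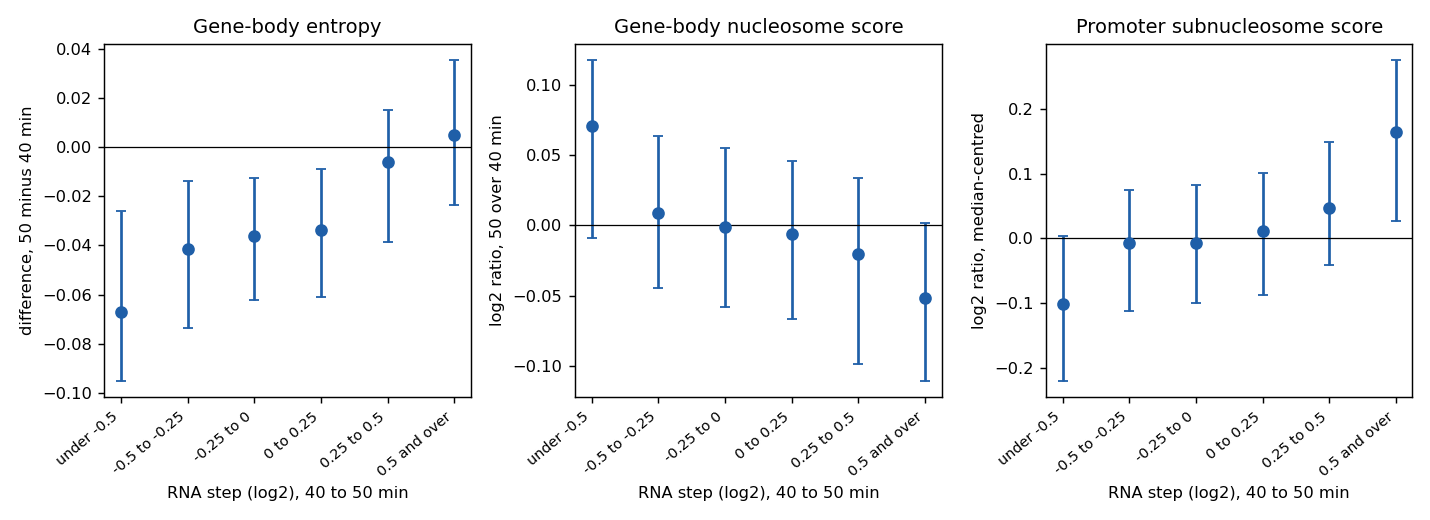
Steps from 40 to 50 min in gene-body entropy (difference), gene-body nucleosome score (log2 ratio) and promoter subnucleosome score (log2 ratio less the median of all genes), by the RNA step of the gene. Points are medians over the genes of a bin and bars run from the 25th to the 75th percentile. From the lowest to the highest bin, the median runs from -0.067 to 0.0047 for entropy, from 0.071 to -0.052 for the nucleosome score and from -0.10 to 0.16 for the promoter score.

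The second cycle shares no library with the first and offers the step from 100 to 110 min under the same phase labels. Its RNA column at 110 min is 1 library, of replicate 1. Of the 20 genes that rose from 40 to 50 min, 17 were higher at 110 than at 100 min, where 30.4% of tested genes were higher. Their median step was 0.25 and none reached 2-fold, which 0% of the 5190 genes did. From 110 to 120 min 19 of the 20 were higher (63.1% of tested genes) and 14 reached 2-fold (0.501%). From 100 to 120 min, which leaves out the column of 1 library, all 20 were higher (49.7%), and 16 reached 2-fold, out of 32 genes that did so (0.617%). PIR1 stood at 123 before the step (100 min), at 173 after it (110 min) and at 556 by 120 min. The steps of all 5190 genes from 40 to 50 min had a Pearson's r of 0.24 with those from 100 to 110 min, 0.40 with those from 110 to 120 min and 0.49 with those from 100 to 120 min. In these RNA columns the rise seen between 40 and 50 min of the first cycle thus lay mostly between 110 and 120 min of the second. That placing rests on the RNA column of 110 min, which is 1 library.

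The chromatin of the same 20 genes was read from 100 to 110 min as well. Promoter ratios are again given relative to the median of all genes, which was -0.15 from 100 to 110 min and -0.09 from 110 to 120 min. From 100 to 110 min the promoter score was above that median (50%) in 19 of the 20, with a median log2 ratio of 0.18. It went from 0.0144 to 0.0211 at PIR1 (0.70), from 0.0141 to 0.0191 at YGP1 (0.59) and from 0.0231 to 0.0271 at ASH1 (0.38). Entropy was lower in 5 of the 20, against 71.4% of all genes. From 110 to 120 min the promoter score was above the median of all genes in 17 of the 20, again with a median of 0.18. The shift in promoter score relative to all genes was thus alike at both steps of the second cycle. Both MNase replicates contribute to the column of 110 min, whereas the RNA column holds 1, so the values of RNA and chromatin in this column do not come from the same set of cultures.

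The genes that fell divided in the second cycle. The 5 core histone genes among them were lower from 100 to 110 min in 5 of 5 cases (median -0.29). At that step 3610 of the 5190 tested genes were lower. From 100 to 120 min these 5 genes were lower in 5 of 5 cases (median -0.87). The 6 sulfur genes were higher in 6 of 6 cases at both steps, with medians of 0.35 and 0.74. The share of tested genes that were higher was 30.4% from 100 to 110 min and 49.7% from 100 to 120 min. Over the whole sulfate and methionine list all 20 tested genes were higher from 100 to 110 min (median 0.29). MET6 stood at 409 before that step, at 525 after it and at 741 by 120 min. At these 40 to 50 and 100 to 110 min steps, promoter scores of most of the list took the same sign as RNA, relative to the median of all genes. That median was itself -0.15 from 100 to 110 min, so a score above it could still be lower than before in the deposited values. From 100 to 110 min 19 of 21 were above the median of all genes (median log2 ratio 0.11), where 18 of 21 had been below it from 40 to 50 min. At MET16, a gene of sulfate reduction, the log2 ratio was -0.53 at the first step and 0.27 at the later one, and at MET6 it was -0.37 and 0.31. This likeness did not hold at the next step. From 110 to 120 min 12 of 21 were above the median (median log2 ratio 0.05), while RNA was higher in 19 of 20 tested genes. Of the core histones 6 of 8 had promoter scores above the median (0.08), while RNA was higher in 0 of 8. Other lists with no call from 40 to 50 min also differed in sign between the cycles. The phosphate genes were lower in 12 of 15 cases in the first cycle (median -0.09) and higher in 14 of 15 from 100 to 110 min (median 0.28). PHO3 (277 and 519), PHO5 (47.8 and 75.2) and PHO86 (188 and 190.2) were the 3 with higher values at 50 min. Glycolysis genes were lower in 14 of 20 cases and then higher in 18 (medians -0.03 and 0.07). Heat shock and stress genes were lower in 17 of 20 and then higher in 14 (medians -0.17 and 0.05). Among all 5190 tested genes, 3197 were lower from 40 to 50 min (median -0.03). From 100 to 110 min 1580 (30.4%) were higher (median -0.05). The first step of the glycolysis genes was thus near that of all genes.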

How the data were processed

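RNA-seq and MNase-seq reads were aligned by the authors to sacCer3/R64 with Bowtie 0.12.7 (per the labels). MNase fragments were subsampled per replicate to equal numbers of each length at all time points, and replicates were merged. The 4 tables deposited by the authors hold a score per gene and time point: RNA named TPM (column sums from 949828 to 1041385, so not treated as plain TPM), nucleosome entropy, nucleosome score and a promoter subnucleosome score whose exact making is not given in the sources used here. Read depth of single libraries was not analysed here. The score columns for 40 and 50 min were compared over all 5590 genes in Python 3.11.15 with pandas 2.3.3: RNA by log2(value + 1) with a minimum value of 5 and a 2-fold threshold, entropy by difference (0.1), nucleosome and promoter scores by log2 ratio (0.2 and 0.5, the latter minus the median). Calls were tested on simulated data. Named genes were list members, the 12 largest RNA rises and falls and the 3 largest rises and falls per chromatin table, without the lowest 10% by mean score. Genes named beyond these were chosen after their values were seen. Ribosomal protein genes were taken by symbol, without RPP1, which encodes an RNase P subunit. Members, lists and thresholds were chosen with earlier results of these data known. Of the genes, 5587 were in the RefSeq R64 annotation, where 5582 ends were equal and 5584 starts were 1 base higher than the deposited ones, which count from 0.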

Additional observations from a re-analysis of the deposited data

Results flagged for a closer look

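The sulfate and methionine genes had a median RNA step of -0.78 from 40 to 50 min, with all 20 tested genes lower, and of 0.29 from 100 to 110 min, with all 20 higher. From 100 to 120 min the median was 0.39 and all 20 were higher, so the sign in the second cycle did not rest on the RNA library of 110 min. Both steps carry the same phase labels and share no library. This difference was not tested, since each time point is 1 merged value.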

How the results depend on the processing

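No paired analysis was possible because each column merges both replicates, and for the same reason no replicate could be left out in turn. With a pseudocount of 10, 13 genes rose instead of 20 and 9 fell instead of 13. Across the 7 alternatives for RNA, the other counts ran from 18 to 22 genes that rose and from 11 to 14 that fell, no called gene changed sign, and 12 of the 33 dropped below 2-fold in at least 1 of them. These were KIN3, CDC6, NCA3, PRY1, SIC1, MSA1, YLR049C, SEO1, MHT1, MMP1, MET6 and HTB2, and HTB2 dropped under 3 settings. With columns set to the same upper quartile, the median step of all genes became 0.02 instead of -0.03. Entropy was lower in 2858 of the 3420 genes of at least 1000 bp (83.6%), a smaller count because fewer genes were compared. Without the lowest 10% of genes, 126 instead of 212 nucleosome score changes and 11 instead of 28 promoter score changes were left, and a pseudocount of the 10th percentile left 0 promoter changes. The cause was not tested. The likeness of RNA steps to the second cycle was 0.24 at 100 to 110 min, 0.40 at 110 to 120 min and 0.49 at 100 to 120 min (Pearson's r). The last 2 were chosen after seeing the data. The relation of entropy to origin distance stayed between -0.076 and -0.089 (rho).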
